A study of Mus musculus with 12 samples.

Results

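The transcripts of 10 membrane transporters were followed in RNA-seq libraries of mouse satellite cells: the glucose transporters *Slc2a1* and *Slc2a3*, the lactate transporters *Slc16a1* and *Slc16a3*, and the amino acid transporters *Slc3a2*, *Slc7a5*, *Slc7a1*, *Slc1a5*, *Slc38a1* and *Slc38a2*. They were taken by gene symbol from the 55401 genes of the deposited count table, and each symbol matched 1 gene. All mice carried floxed *Cxcr4* alleles on both chromosomes (CXCR4 FL/FL) and the Pax7-ZsGreen reporter, and all received tamoxifen at 80 mg/kg on 5 days. *Cxcr4* KO mice also carried Pax7-creERT2, which deletes *Cxcr4* in cells that express Pax7, while the mice called WT lacked cre, so that a KO library differs from a WT library by the recombinase as well as by the deletion. ZsGreen+ cells were sorted from hind limb muscle by the reporter and not by loss of *Cxcr4*. There were 4 WT and 4 KO libraries of freshly sorted cells, called quiescent, and 2 WT and 2 KO libraries of sorted cells grown overnight in growth medium, called activated. The mice were adults of 3 to 4 months by the study's methods. A pooling of animals is not given in the sources used here, and the study's general statement that sample sizes count independent mice is not tied to these libraries, so p-values measure the spread between these libraries, which may be technical.

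Satellite cells are the stem cells of skeletal muscle. In resting muscle they are small and divide little, and after injury or in culture they enter the cell cycle, grow and take up more nutrients. GLUT1 (*Slc2a1*) and GLUT3 (*Slc2a3*) carry glucose down its gradient. MCT1 (*Slc16a1*) and MCT4 (*Slc16a3*) carry lactate together with a proton, MCT4 mostly outward from cells with strong glycolysis, and both need the chaperone basigin (*Bsg*) to reach the membrane. CD98 heavy chain (*Slc3a2*) pairs with the light chain LAT1 (*Slc7a5*), which brings in leucine and other large neutral amino acids in exchange for glutamine. Glutamine enters through ASCT2 (*Slc1a5*) and through the sodium-coupled carriers SNAT1 (*Slc38a1*) and SNAT2 (*Slc38a2*), of which SNAT2 is known to be induced when amino acids are scarce, and CAT1 (*Slc7a1*) carries arginine and lysine.

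The quiescent libraries held 12775593 to 23717013 counts and the activated libraries 3172164 to 5427280, of which one transcript, CT010467.1, took between 11.5% and 40.3% in activated and at most 0.807% in quiescent libraries. *Cxcr4* was 4.71-fold lower in quiescent KO than in quiescent WT libraries (log2 fold change -2.24, SE 0.31, adjusted p = 0.00477 by edgeR's quasi-likelihood test) and 2.55-fold lower in activated KO libraries, which did not pass (log2 fold change -1.35, SE 0.46, adjusted p = 0.381). Counts assigned to the whole gene were used, so this value includes any part of *Cxcr4* outside the deletion. Levels are given as CPM, where CPM is the count relative to the scaled size of the library. *Cxcr4* held 33.3 and 14.4 CPM in activated WT and 5.39 and 13.7 CPM in activated KO libraries 1 and 2. Activated KO library 2 thus lay close to activated WT library 2, from 60 and 33 counts. Both activated KO libraries lay below both activated WT ones, and with so few counts these libraries do not settle the size of the loss of *Cxcr4* in activated cells. By RTqPCR across the deleted exon, the study found *Cxcr4* mRNA reduced in satellite cells isolated right after the tamoxifen course. The 14 satellite cell markers summed to between 7019 and 11809 CPM in quiescent and between 3276 and 4464 CPM in activated libraries. These markers did not move alike. From quiescent to activated WT libraries, mean *Myod1* went from 1784 to 1517 CPM and mean *Calcr* from 95.2 to 2.13 CPM. In WT cells 13 of the 14 markers were lower and 1 higher in activated libraries. The 12 muscle fibre markers summed to between 340 and 1139 CPM in quiescent and between 7902 and 18609 CPM in activated libraries. Markers of other cells of muscle were also present, with sums given here for quiescent and then activated libraries. They were 353 to 1743 and 145 to 854 CPM for 10 endothelial markers, and 402 to 3402 and 316 to 795 CPM for 10 fibroadipogenic markers. The fibroadipogenic markers did not move alike either. In activated libraries 4 of the 10 were higher and 6 lower in WT cells, and 5 higher and 5 lower in KO cells. Mean *Pdgfra* went from 7.91 to 13.7 CPM and mean *Dpt* from 311 to 19.5 CPM in WT cells. The sums were 139.7 to 519 and 94.1 to 145 CPM for 11 blood cell markers, of which *Cd52* and *Tyrobp* were at 0 in the activated WT libraries. *Xist* lay at or below 7.17 CPM in every quiescent library and between 451 and 817 CPM in the activated ones, while the Y-linked gene *Ddx3y* lay between 289 and 570.4 CPM in the quiescent and at no more than 2.28 CPM in the activated ones. State and sex of the mice therefore cannot be told apart in any comparison of activated with quiescent cells.

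All 10 transporter genes passed the filter on low counts, with between 891 and 39335 counts per gene in each quiescent library and between 61 and 2928 in each activated library. On GRCm38, in the GENCODE M21 gene models, *Slc16a1* lies at chr3:104638668-104658462, *Slc2a1* at chr4:119108711-119137983, *Slc7a1* at chr5:148327410-148399904 and *Slc2a3* at chr6:122727809-122801640. *Slc1a5* lies at chr7:16781340-16798274, *Slc7a5* at chr8:121881150-121907694, *Slc16a3* at chr11:120948480-120960868 and *Slc3a2* at chr19:8706882-8723369. *Slc38a1*, at chr15:96571418-96642913, and *Slc38a2*, at chr15:96687392-96699730, are neighbours on the same strand. The only shared exon sequence with another gene was in *Slc2a1*, where the antisense RNA Gm12868 covers 105 exonic bases, and that gene held 183 counts over all libraries against 34024 for *Slc2a1*. A stretch of 1450 bases of *Slc38a1* has a copy of 96.6% identity in 4632432E15Rik, which held 77 counts against 20015, and how the counting treated reads that match both is not given in the sources used here.

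The stretch before the transcription start is shown for 4 genes whose levels or ratios differed between the states, as annotated by RefSeq on GRCm38.p6. RefSeq start windows were matched for 6 of the 10 genes, *Slc2a1*, *Slc16a1*, *Slc16a3*, *Slc38a2*, *Slc3a2* and *Slc7a1*, the last with 2 starts, and for *Slc2a3*, *Slc7a5*, *Slc1a5* and *Slc38a1* none is shown. Each line runs 5′ to 3′ on the gene's own strand, at most 250 bases before the start and without bases that the gene models place in an exon. Capitals mark GGGCGG (GC box), CACGTG (E-box) and ACGTG (core of the hypoxia response element) on either strand, the last of which lies within the E-box.
Slc2a1, chr4:119108495-119108710, plus strand: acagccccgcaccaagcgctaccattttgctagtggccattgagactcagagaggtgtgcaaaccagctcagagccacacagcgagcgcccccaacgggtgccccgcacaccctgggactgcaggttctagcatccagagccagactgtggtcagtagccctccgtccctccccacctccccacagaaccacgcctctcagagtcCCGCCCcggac
Slc16a1, chr3:104638414-104638663, plus strand: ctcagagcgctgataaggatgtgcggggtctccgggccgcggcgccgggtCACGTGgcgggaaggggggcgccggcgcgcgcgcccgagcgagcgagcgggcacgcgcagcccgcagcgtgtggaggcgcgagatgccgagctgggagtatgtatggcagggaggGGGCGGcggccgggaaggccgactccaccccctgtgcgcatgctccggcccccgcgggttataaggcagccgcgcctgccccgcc
Slc16a3, chr11:120948817-120949052, plus strand: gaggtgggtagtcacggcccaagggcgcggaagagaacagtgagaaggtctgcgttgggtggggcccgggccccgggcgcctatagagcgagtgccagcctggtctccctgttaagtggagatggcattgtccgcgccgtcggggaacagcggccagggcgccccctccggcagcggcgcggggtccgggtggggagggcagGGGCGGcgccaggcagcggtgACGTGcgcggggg
Slc38a2, chr15:96699731-96699978, minus strand: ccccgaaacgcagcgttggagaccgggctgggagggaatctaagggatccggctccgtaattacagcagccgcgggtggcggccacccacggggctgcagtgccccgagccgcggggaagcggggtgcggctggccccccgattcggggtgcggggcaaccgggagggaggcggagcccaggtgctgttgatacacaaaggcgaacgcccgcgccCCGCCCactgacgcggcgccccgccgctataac

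Across the full 300-base windows of the 6 genes, GGGCGG was found in 6 of 7 windows, against 35.7% of all 32851 windows. ACGTG was found in 4 of 7 windows, those of *Slc2a1*, *Slc16a1*, *Slc16a3* and *Slc3a2*, against 19.6% of all windows. CACGTG was found in 1 of 7, that of *Slc16a1*, against 7.15%, and the amino acid response motif TGATGNAA in 0 of 7, against 3.97%. In *Slc16a3* the 2 copies of ACGTG begin 27 and 14 bases before the start, and the copy at 14 lies past the end of the printed stretch. That stretch of *Slc16a3* lies within the span of its gene model and outside the exons. In *Slc2a1* the copy begins 36 bases before the start and runs on past the end of the printed stretch, where it is not in capitals. A match describes the letters of the window and not a bound site.

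Levels of different genes were compared as CPM per kilobase of exon, with the summed exons of the gene model as length. In quiescent WT libraries *Slc38a2* was highest at 179 ± 29.1 CPM per kilobase (SD, n = 4), followed by *Slc3a2* at 131 ± 32.9 and its partner *Slc7a5* at 79.1 ± 30.4 (SD, n = 4). *Slc2a1* (58.7 ± 21.9), *Slc1a5* (51.6 ± 12.9), *Slc16a1* (30.7 ± 9.43) and *Slc16a3* (29.3 ± 6.30) lay in the middle. *Slc2a3* (12.6 ± 1.60), *Slc7a1* (11.1 ± 5.23) and *Slc38a1* (6.61 ± 3.13) were lowest. Neighbours in this order overlapped between libraries, apart from *Slc16a3* and *Slc2a3*, whose ranges were separate. GLUT1 was the more abundant of the glucose transporter transcripts, and SNAT2 was far more abundant than SNAT1, with separate ranges in both cases. In activated WT libraries *Slc1a5* was highest at 111 ± 4.70 CPM per kilobase (SD, n = 2), followed by *Slc3a2* at 95.4 ± 36.1 and *Slc7a5* at 76.3 ± 5.84, whose ranges overlapped in turn, while *Slc38a2* had moved to the fifth place at 37.2 ± 7.06. *Slc2a3* was last at 5.09 ± 1.69 CPM per kilobase in WT and at 2.09 ± 0.104 in KO (SD, n = 2). The FPKM that the authors deposited as 1 value per group put the 10 genes between 6.40 and 174 in quiescent WT and between 5.26 and 114 in activated WT cells, with the same gene at the top of each group.

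**Figure D1:**
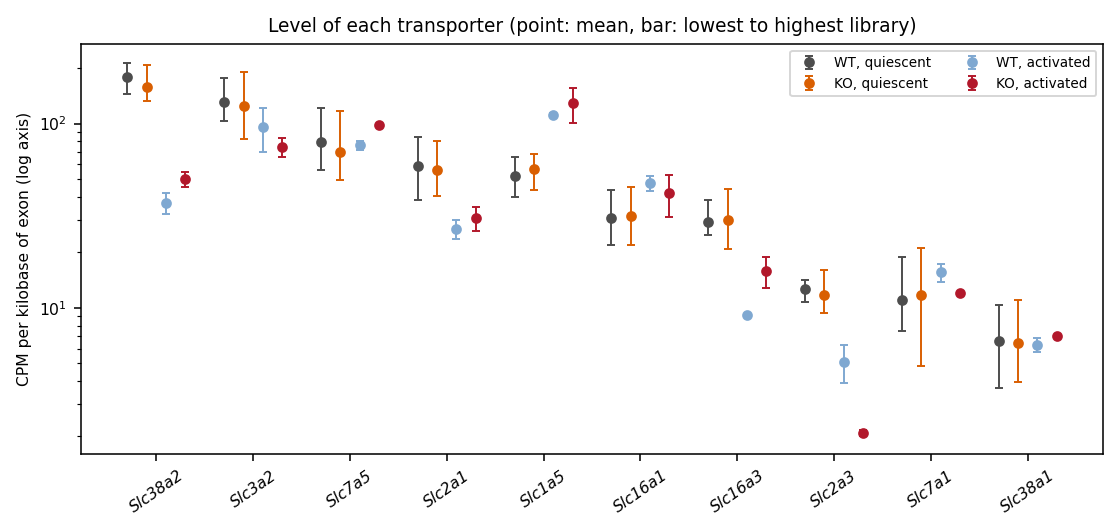
Level of each transporter transcript as CPM per kilobase of exon on a log axis, for the 4 groups; points are group means and bars run from the lowest to the highest library (n = 4 quiescent, n = 2 activated). *Slc38a2* leads both quiescent groups and *Slc1a5* both activated groups, and *Slc2a3* is lowest in both activated groups.

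The comparison of activated with quiescent cells asked which transporters differ between sorted cells grown overnight and freshly sorted cells. The freshly sorted cells had also left the muscle and been through enzyme digestion. In a separate staining the study found MYOD1 protein in almost all such cells, so the quiescent libraries need not show the levels within muscle. In WT cells the glutamine transporter *Slc1a5* rose, and both glucose transporters, the lactate exporter *Slc16a3* and the SNAT2 gene *Slc38a2* fell. In KO cells *Slc1a5* rose, and *Slc2a3* and *Slc38a2* fell. *Slc16a1*, *Slc3a2*, *Slc7a5*, *Slc7a1* and *Slc38a1* did not pass in either genotype. In all, 1 of 10 transporters was called higher and 4 of 10 lower in WT cells, where 9.65% of the 25771 genes tested were called higher and 16.5% lower, and 1 of 10 higher and 2 of 10 lower in KO cells, where 11.1% of genes were called higher and 18.5% lower. A call required an adjusted p under 0.05 by edgeR's quasi-likelihood test, an absolute log2 fold change above 1 and more than 10 normalized counts on average. The median log2 fold change of the 10 genes was -0.26 in WT and -0.36 in KO cells, beside -0.92 and -0.96 over all genes tested. The median over all genes depends on the filter on low counts. With a mean count of at least 10 it was -0.46 in WT and -0.49 in KO cells, and with no filter -1.93 and -1.84. The distance of the 10 genes from it therefore has no fixed size. In these bulk libraries fewer cells that express a gene and less of its RNA per cell cannot be told apart. The marker sums of all these cell types, the sex-linked genes and the share taken by CT010467.1 moved with state as given above, and their part in these changes was not tested.

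**Figure D2:**
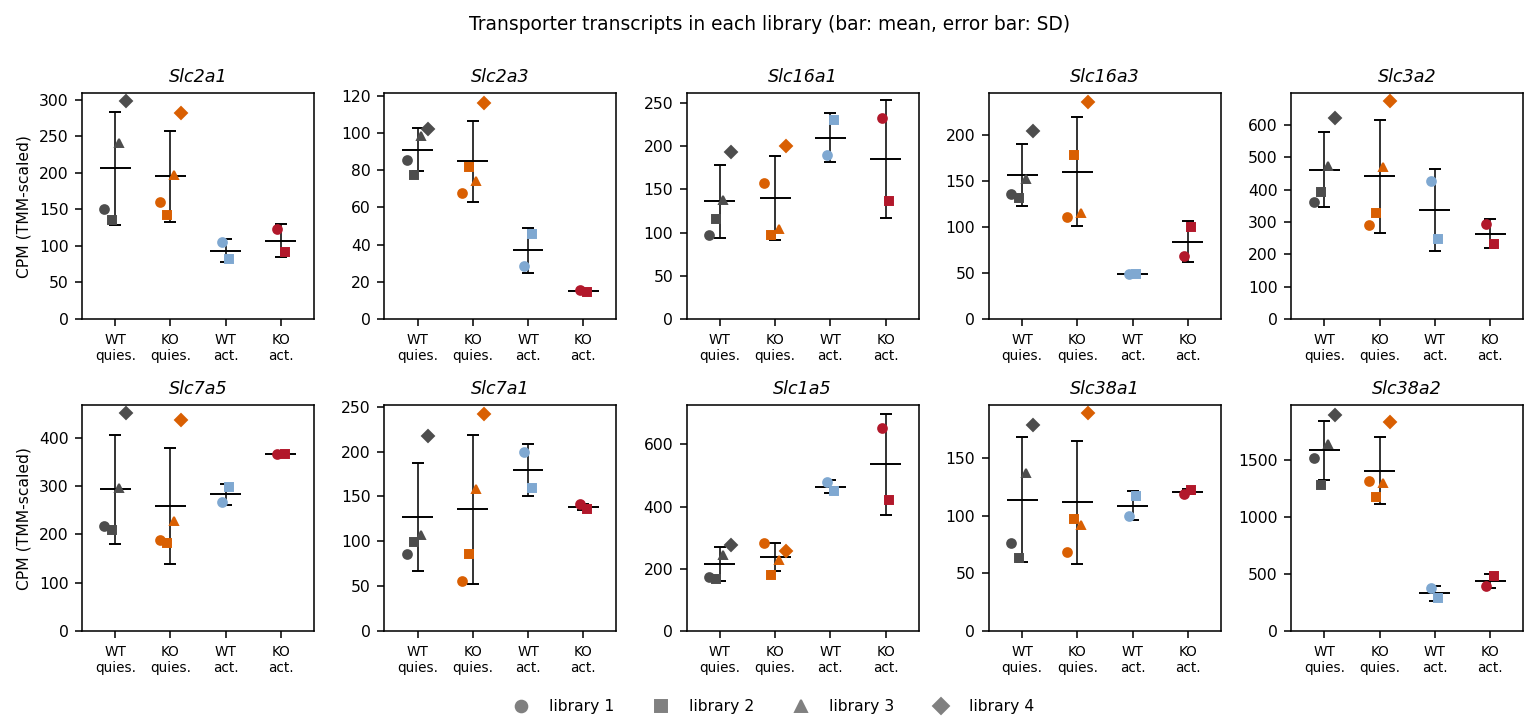
CPM of each of the 10 transporters in each library, by group; bars are group means, error bars SD (n = 4 quiescent, n = 2 activated), and the marker shape gives the library number. *Slc1a5* is above and *Slc2a3* and *Slc38a2* are below every quiescent library in all 4 activated libraries, and library 4 is the highest quiescent WT library for all 10 genes.

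*Slc38a2*, the sodium-coupled glutamine and alanine carrier SNAT2, held 1515, 1276, 1638 and 1895 CPM in quiescent WT and 1309.7, 1176, 1297 and 1831 CPM in quiescent KO libraries. It held 373 and 285 CPM in activated WT and 398 and 485 CPM in activated KO libraries. Every activated library lay below every quiescent one, so the states did not overlap in either genotype. It fell by 2.26 on the log2 scale in WT cells (SE 0.30, 4.81-fold lower, adjusted p = 1.12e-05 by edgeR) and by 1.67 in KO cells (SE 0.29, 3.18-fold lower, adjusted p = 0.000176). Leaving out any 1 library kept the log2 fold change between -2.40 and -2.03 in WT and between -1.80 and -1.51 in KO cells, and the gene stayed called. Its neighbour *Slc38a1*, which encodes the related carrier SNAT1, had a mean of 114 ± 54.0 CPM (SD, n = 4) in quiescent WT and 109 ± 12.5 CPM (SD, n = 2) in activated WT libraries. Its log2 fold change was -0.07 (SE 0.39, adjusted p = 0.897) in WT and 0.12 (SE 0.39, adjusted p = 0.824) in KO cells, and its groups overlapped.

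*Slc1a5*, which encodes the glutamine exchanger ASCT2, held 174, 167, 245 and 276 CPM in quiescent WT and 284, 181, 229 and 257 CPM in quiescent KO libraries. It held 478 and 451 CPM in activated WT and 651 and 422 CPM in activated KO libraries. All 4 activated libraries lay above all 8 quiescent ones. It rose 2.16-fold in WT cells (log2 fold change 1.11, SE 0.27, adjusted p = 0.00398 by edgeR) and 2.26-fold in KO cells (log2 fold change 1.17, SE 0.27, adjusted p = 0.00221). The WT value lies close to the threshold of 1 and came to 0.99 with libraries scaled by their totals alone, and the KO call was lost without activated KO library 1 (log2 fold change 0.83, adjusted p = 0.117).

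*Slc2a3*, the GLUT3 gene, held 85.4, 77.4, 98.7 and 102 CPM in quiescent WT and 67.7, 81.6, 74.0 and 116 CPM in quiescent KO libraries. It held 28.3 and 45.5 CPM in activated WT and 15.7 and 14.6 CPM in activated KO libraries. Again no activated library reached a quiescent one, and the activated KO libraries were the lowest of all. It was 2.49-fold lower in activated WT cells (log2 fold change -1.32, SE 0.29, adjusted p = 0.0018 by edgeR) and 5.61-fold lower in activated KO cells (log2 fold change -2.49, SE 0.31, adjusted p = 5.73e-06). Without activated WT library 1 the WT call was lost (log2 fold change -0.92, adjusted p = 0.106). *Slc2a1*, the GLUT1 gene, held 151, 135, 241 and 298 CPM in quiescent WT and 105 and 82.3 CPM in activated WT libraries, and 160.2, 142, 197 and 282 CPM in quiescent KO and 124 and 91.0 CPM in activated KO libraries. Its activated libraries lay below its quiescent ones in each genotype, while the quiescent libraries were spread widely. In activated WT cells it was at 0.455 times its quiescent level (log2 fold change -1.14, SE 0.35, adjusted p = 0.0183 by edgeR), and its value in KO cells did not pass (log2 fold change -0.86, SE 0.34, adjusted p = 0.0572). The WT call was lost without either activated WT library (log2 fold changes -1.25 and -0.92, adjusted p = 0.0692 and 0.194) and without quiescent WT library 4 (-0.90).

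*Slc16a3*, the lactate exporter MCT4, held 135, 131, 152 and 204 CPM in quiescent WT and 48.5 and 49.0 CPM in activated WT libraries. It held 111, 178, 115 and 235 CPM in quiescent KO and 68.1 and 99.9 CPM in activated KO libraries. The states did not overlap within either genotype. It was 3.19-fold lower in activated WT cells (log2 fold change -1.68, SE 0.33, adjusted p = 0.000732 by edgeR). In KO cells the log2 fold change was -0.93 (SE 0.32, adjusted p = 0.0307), past the p threshold and short of the fold threshold. Without quiescent KO library 1 or 3 it came to -1.06 or -1.05 and was called, and leaving out 1 library at a time gave values from -1.22 to -0.68. The related transporter *Slc16a1*, MCT1, had values in the other direction that did not pass, with 136 ± 41.7 CPM (SD, n = 4) in quiescent and 210.2 ± 28.5 CPM (SD, n = 2) in activated WT libraries (log2 fold change 0.63, SE 0.32, adjusted p = 0.144) and a log2 fold change of 0.40 (SE 0.32, adjusted p = 0.321) in KO cells.

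The leucine carrier and its chaperone did not pass in either genotype. *Slc3a2*, the CD98 heavy chain, had 462 ± 116 CPM (SD, n = 4) in quiescent and 337 ± 127 CPM (SD, n = 2) in activated WT libraries (log2 fold change -0.46, SE 0.34, adjusted p = 0.296 by edgeR), and its log2 fold change in KO cells was -0.74 (SE 0.34, adjusted p = 0.101). *Slc7a5*, the light chain LAT1, had 293 ± 113 CPM (SD, n = 4) and 283 ± 21.6 CPM (SD, n = 2) in the same groups (log2 fold change -0.05, SE 0.35, adjusted p = 0.918), and a log2 fold change of 0.50 (SE 0.34, adjusted p = 0.25) in KO cells. *Slc7a1*, the arginine and lysine carrier CAT1, had 127 ± 60.3 CPM (SD, n = 4) and 179 ± 28.8 CPM (SD, n = 2), with a log2 fold change of 0.49 (SE 0.43, adjusted p = 0.368) in WT and 0.03 (SE 0.44, adjusted p = 0.961) in KO cells. For these 3 genes the activated libraries lay inside the range of the quiescent ones or overlapped it.

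**Figure D3:**
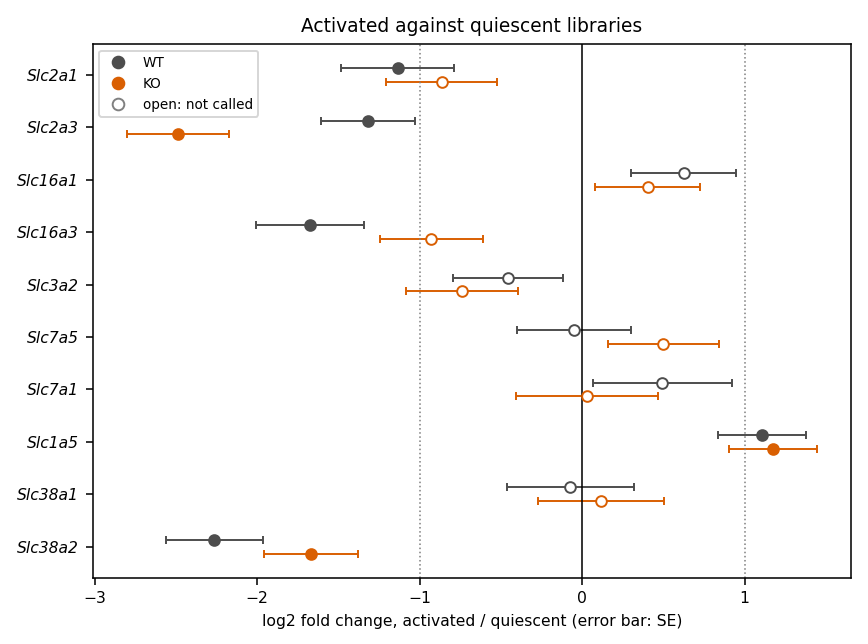
Log2 fold change of each transporter in activated against quiescent libraries, for WT (2 activated against 4 quiescent libraries, grey) and KO (2 against 4, orange); error bars are SE, filled points were called and dotted lines mark the fold threshold. *Slc1a5* is called higher in both genotypes, *Slc2a3* and *Slc38a2* lower in both, and *Slc2a1* and *Slc16a3* lower in WT.

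Part of the spread among quiescent libraries was shared by the genes. The libraries numbered 4 were the highest of their group for 10 of 10 transporters in WT and 9 of 10 in KO, and the 10 genes together summed to between 2665 and 4438 CPM in quiescent WT and between 2548 and 4465 CPM in quiescent KO libraries, against 1963 to 2216 and 2106 to 2412 CPM in activated WT and KO libraries. The highest KO library for the remaining gene, *Slc1a5*, was number 1. Without both libraries numbered 4 the number of transporters called was within 1.5 times of that with them in each comparison, and *Slc2a1* was no longer called in WT cells (log2 fold change -0.89).

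Ratios of related transporters within a library do not depend on scaling between libraries, and 5 were compared between the states by an exact two-sided permutation test that kept the genotypes apart (225 arrangements, smallest p 0.00444), with Benjamini-Hochberg adjustment over the 5. Averaged over the genotypes, the balance moved toward SNAT1, MCT1 and GLUT1 within their pairs and toward LAT1 against its heavy chain. The move toward GLUT1 came mostly from KO cells, where the mean log2 ratio went from 1.18 to 2.80, against 1.11 to 1.37 in WT cells. The log2 ratio of *Slc38a1* to *Slc38a2* was -4.31, -4.33, -3.58 and -3.40 in quiescent WT and -4.26, -3.60, -3.82 and -3.28 in quiescent KO libraries, and -1.90, -1.28, -1.74 and -1.98 in activated WT and KO libraries. No activated library overlapped a quiescent one, and the ratio was 2.10 higher on the log2 scale in activated libraries (exact permutation p = 0.00444, the smallest possible, adjusted p = 0.0148).

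The log2 ratio of *Slc16a1* to *Slc16a3* was -0.22 ± 0.17 and -0.19 ± 0.57 (SD, n = 4) in quiescent WT and KO libraries, 2.10 ± 0.18 (SD, n = 2) in activated WT libraries and 1.12 ± 0.93 (SD, n = 2) in activated KO libraries. It was 1.81 higher in activated libraries (exact permutation adjusted p = 0.0148), with activated KO library 2 at 0.46 beside quiescent KO library 1 at 0.51. The log2 ratio of *Slc2a1* to *Slc2a3* was 1.11 ± 0.36 and 1.18 ± 0.27 (SD, n = 4) in quiescent WT and KO, and 1.89 and 0.85 in the activated WT and 2.97 and 2.63 in the activated KO libraries. The difference of 0.94 passed (exact permutation adjusted p = 0.0222), while activated WT library 2 lay within the quiescent range, and leaving out activated WT library 1 brought the difference to 0.68 and lost the call. Leaving out activated KO library 1 or 2 lost it too, at 0.85 and 1.02, with an exact permutation adjusted p = 0.0667 in each of these 3 cases. For the complex of *Slc3a2* and *Slc7a5* the log2 ratio was 0.70 ± 0.19 and 0.79 ± 0.20 (SD, n = 4) in quiescent WT and KO, 0.67 and -0.27 in activated WT and -0.31 and -0.65 in activated KO libraries. It was lower by 0.88 in activated libraries (exact permutation adjusted p = 0.0148), with activated WT library 1 inside the quiescent range. The ratio of *Slc7a5* to *Slc7a1* differed by -0.11 (exact permutation adjusted p = 0.671).

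**Figure D4:**
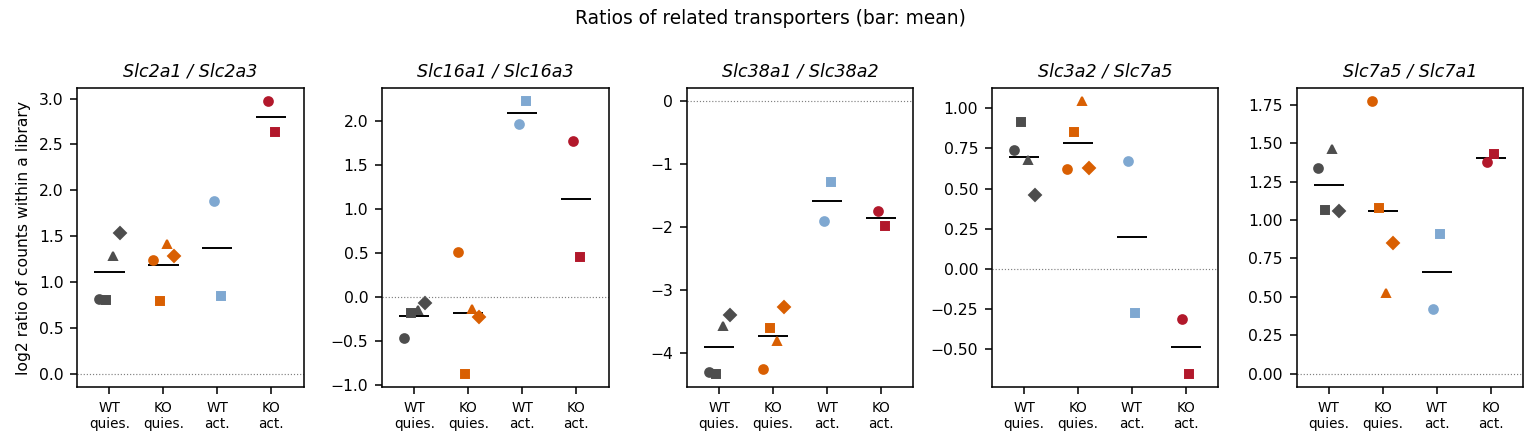
Log2 ratio of the counts of 2 related transporters within each library, by group, with marker shapes for library numbers and bars for group means (n = 4 quiescent, n = 2 activated). The ratio of *Slc38a1* to *Slc38a2* separates all activated from all quiescent libraries, and the other ratios overlap in at least 1 library.

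The comparison of KO with WT cells asked whether loss of *Cxcr4*, the receptor for the chemokine CXCL12, goes with other transporter levels. In quiescent cells no transporter passed, in activated cells none passed, and the difference between the states in the KO effect passed for none. The counts were 0 of 10 in quiescent cells, where 0.0155% of genes were called, 0 of 10 in activated cells, where 0.0504% were called, and 0 of 10 for the difference, where 0% were called by edgeR. Over the 25771 genes tested, 448, 2158 and 1699 had an unadjusted p under 0.05 by edgeR, and DESeq2 on all libraries called 5, 144 and 47 genes. At an unadjusted p under 0.05 there were 0, 2 and 1 transporters in these 3 comparisons by edgeR, and DESeq2 on all libraries called 0, 1 and 0. The median log2 fold change of the 10 genes in KO against WT was -0.05 in quiescent and 0.18 in activated cells, beside 0.02 and 0.00 over all genes tested. A p that misses the threshold does not show that the genotypes have the same level.

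In quiescent cells, with 4 libraries per genotype, the log2 fold changes of the 10 genes ran from -0.18 for *Slc7a5* (SE 0.28) to 0.14 for *Slc1a5* (SE 0.23), and all groups overlapped. *Slc38a2* averaged 1581 ± 258 CPM in WT against 1403 ± 292 CPM in KO (SD, n = 4), a log2 fold change of -0.17 (SE 0.22). *Slc2a1* had 206 ± 76.8 and 195 ± 62.4 CPM, *Slc2a3* 91.0 ± 11.6 and 84.9 ± 21.7 CPM, and *Slc3a2* 462 ± 116 and 441 ± 174 CPM (SD, n = 4). Spread between libraries of the same genotype was larger than these differences. The 5 within-library ratios differed between quiescent KO and WT by between -0.17 and 0.17 on the log2 scale (exact permutation test over 70 arrangements, adjusted p = 0.943 for each).

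In activated cells, with 2 libraries per genotype, *Slc2a3* averaged 36.9 ± 12.2 CPM in WT against 15.1 ± 0.755 CPM in KO (SD, n = 2), from 173 and 104 counts in WT and 61 and 64 in KO. Its log2 fold change was -1.27 (SE 0.34, unadjusted p = 0.0012, adjusted p = 0.207 by edgeR), and it was called with DESeq2 on all libraries (log2 fold change -1.33, adjusted p = 0.0322). The KO effect on *Slc2a3* was lower in activated than in quiescent cells by 1.17 on the log2 scale (SE 0.40, unadjusted p = 0.00828), which did not pass (adjusted p = 0.581). *Slc16a3* lay in the other direction, at 48.8 ± 0.37 CPM in WT against 84.0 ± 22.5 CPM in KO (SD, n = 2) and a log2 fold change of 0.78 (SE 0.36, unadjusted p = 0.0424, adjusted p = 0.589 by edgeR). The other 8 log2 fold changes ran from -0.37 for *Slc7a1* (SE 0.51) to 0.42 for *Slc38a2* (SE 0.31), with SE of up to 0.51. The activated libraries did not overlap between genotypes for 6 of the 10 genes, *Slc2a3*, *Slc16a3*, *Slc7a5*, *Slc7a1*, *Slc38a1* and *Slc38a2*, where 24.7% of all genes tested did not overlap. Tested genes with 0 counts in all 4 activated libraries count as overlapping there, so this share is lower than among genes detected in activated cells. With 2 libraries against 2 an exact permutation test cannot give a p under 0.333. The log2 ratios differed between activated KO and WT by 1.43 for *Slc2a1* to *Slc2a3* and by -0.98 for *Slc16a1* to *Slc16a3*, each with an exact permutation p = 0.333.

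**Figure D5:**
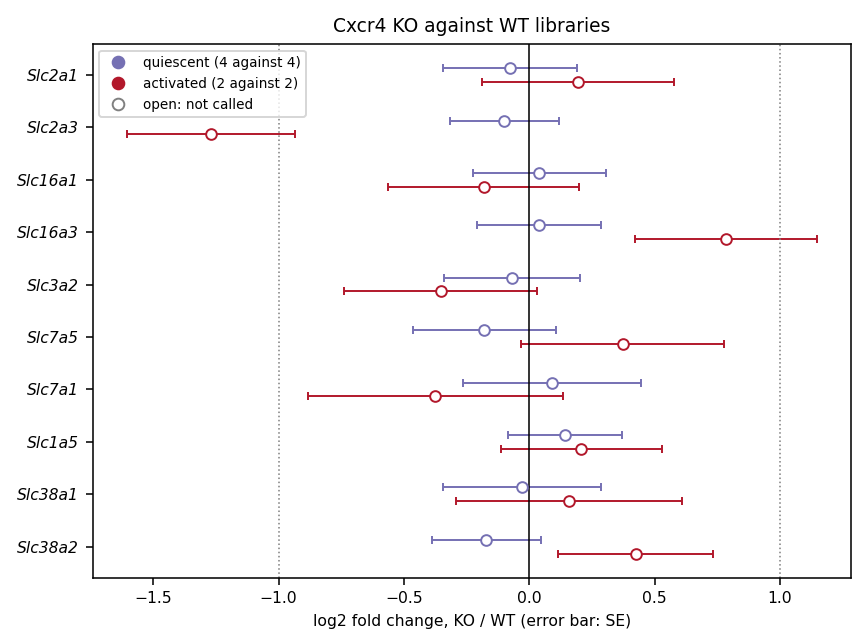
Log2 fold change of each transporter in KO against WT libraries, quiescent (4 against 4, purple) and activated (2 against 2, red); error bars are SE and open points were not called. All 10 quiescent values lie between -0.18 and 0.14, and the activated values run from -1.27 for *Slc2a3* to 0.78 for *Slc16a3*.

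Other carriers of the same substrates were listed to place these 10 genes: 14 sugar transporters, 16 monocarboxylate and pyruvate carriers, 44 amino acid transporters, of which 42 could be tested, and 10 partners and regulators. The insulin-responsive glucose transporter of muscle and fat, GLUT4 (*Slc2a4*), rose in activated cells, from 10.1 ± 3.25 to 62.8 ± 33.2 CPM in WT (log2 fold change 2.63, SE 0.39, adjusted p = 3.59e-05 by edgeR) and from 13.4 ± 5.90 to 78.7 ± 22.3 CPM in KO (2.56, SE 0.38, adjusted p = 3.72e-05). Of the 12 muscle fibre markers 11 could be tested and all 11 rose in both genotypes, and their part in this rise was not tested. The cystine importer xCT (*Slc7a11*), which uses the same heavy chain CD98 as LAT1, rose from 5.87 ± 1.09 CPM (SD, n = 4) to 364 and 266 CPM in WT and from 5.18 ± 1.60 CPM (SD, n = 4) to 327 and 54.7 CPM in KO libraries. Activated KO library 2 lay well below the other activated libraries and still above all quiescent ones, and the log2 fold changes were 5.75 (SE 0.46, adjusted p = 4.41e-08) in WT and 5.21 (SE 0.45, adjusted p = 8.05e-08) in KO cells. Another light chain of CD98, LAT2 (*Slc7a8*), went the other way, from 180 ± 41.4 to 3.06 ± 1.22 CPM in WT (54.7-fold lower, adjusted p = 1.7e-08 by edgeR) and from 157 ± 24.4 to 2.85 ± 1.13 CPM in KO (54.3-fold lower, adjusted p = 1.52e-08).

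Among the 14 other sugar transporters 1 was called higher and 9 lower in WT cells, and 1 higher and 10 lower in KO cells. Of the 16 other monocarboxylate carriers 0 were called higher and 4 lower in WT, and 1 higher and 5 lower in KO cells. Of the 42 other amino acid transporters 1 was called higher and 12 lower in WT, and 4 higher and 15 lower in KO cells. The single higher carriers were *Slc2a4* among the sugar transporters and, in KO cells, the mitochondrial pyruvate carrier subunit *Mpc2* (log2 fold change 1.02), and the 4 higher amino acid transporters in KO cells were *Slc7a11*, *Slc1a4*, *Slc6a9* and *Slc38a7*, with log2 fold changes of 5.21, 1.14, 1.25 and 1.27. The activated KO libraries 1 and 2 held 56.0 and 24.4 CPM of *Slc1a4*, 11.6 and 16.7 CPM of *Slc6a9* and 13.9 and 29.2 CPM of *Slc38a7*. The calls of these 3 rested on 1 library each: without activated KO library 1 *Slc1a4* came to 0.41 (adjusted p = 0.516 by edgeR), and without activated KO library 2 *Slc6a9* came to 0.97 (adjusted p = 0.219) and *Slc38a7* to 0.65 (adjusted p = 0.443). *Mpc2* fell below the fold threshold without activated KO library 1 (0.85, adjusted p = 0.150 by edgeR) and without quiescent KO library 1 or 4 (0.97 and 0.96), and *Slc7a11* stayed called without each library, at 3.41 without activated KO library 1. Apart from *Slc2a4* and *Slc7a11* these genes were named after their values were seen. These shares stand beside 9.65% and 16.5% of all genes called higher and lower in WT and 11.1% and 18.5% in KO cells. Several of the lowest values belong to rare transcripts with 0 counts in the shallower activated libraries. There the fitted fold change depends on the fit, and only a bound can be given against a floor of 3 counts over the group. Such genes made up 3 of the 9 sugar, 1 of the 4 monocarboxylate and 4 of the 12 amino acid carriers called lower in WT cells. In KO cells they made up 3 of 10, 2 of 5 and 3 of 15. With 0 counts in the activated libraries they passed the filter through the deeper quiescent ones, so these calls are no support for a fall of the lists. The kidney glucose carrier *Slc5a2*, at 3.14 CPM in quiescent WT libraries, was at least 8.80-fold lower in activated WT libraries, and *Slc38a8*, *Slc5a8* and *Slc2a7* were at least 4.03-fold, 3.49-fold and 3.10-fold lower there. With such genes at their bound the median log2 fold change of the sugar list was -1.77 in WT and -1.86 in KO, of the monocarboxylate list -0.68 and -0.82, and of the amino acid list -0.95 and -1.06.

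Among the partners, the lactate dehydrogenase gene *Ldha*, whose enzyme makes lactate from pyruvate, rose from 199.6 ± 6.97 to 700.2 ± 125 CPM in WT (log2 fold change 1.81, SE 0.23, adjusted p = 5.72e-06 by edgeR) and by 1.59 on the log2 scale in KO cells (SE 0.23, adjusted p = 2.12e-05). *Bsg*, the chaperone of MCT1 and MCT4, had 206 ± 14.5 CPM (SD, n = 4) in quiescent and 257 ± 52.8 CPM (SD, n = 2) in activated WT libraries and did not pass (log2 fold change 0.32, SE 0.22, adjusted p = 0.271). In KO against WT no gene of any of these lists was called in quiescent or activated cells, or for the difference between the states, by edgeR.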

How the data were processed

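Total RNA of sorted Pax7-ZsGreen+ cells was made into libraries with the NEBNext Ultra kit. The authors trimmed reads with Trim Galore 0.6.0, mapped them to GRCm38 with STAR 2.7.2a and assigned them to GENCODE genes, and they deposited raw counts per gene for 12 libraries. A strand setting for counting is not given in the sources used here. The authors also deposited FPKM, pooled to 1 value per group, which were copied and not tested.

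Libraries were grouped by the sample labels. From the counts, edgeR 4.0.16 in R 4.3.3 (filterByExpr, 25771 genes left, TMM scaling, a mean for each of the 4 groups, quasi-likelihood F test, Benjamini-Hochberg adjustment over all genes tested) gave log2 fold changes, whose SE is the absolute log2 fold change over the root of F. CPM used TMM-scaled library sizes. Ratio tests used log2 counts with 0.5 added. The test was checked on simulated counts. Copies were searched with blastn 2.17.0 at 90% identity or more over 300 bases or more. The alternatives were other scalings and filters, a robust fit, the adjusted p alone, DESeq2 1.42.0, the replicate number as a block, leaving out each library and, added after the values were seen, leaving out CT010467.1 or both quiescent libraries numbered 4. Of the wider lists the text names the genes with up to 5 highest and 5 lowest changes in WT called in both genotypes, *Bsg* and any gene called in KO against WT. The 10 genes and the lists were chosen with earlier results of these data known. Protein sequences were not used here. Some genes of the wider lists are not reported here.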

Additional observations from a re-analysis of the deposited data

Results flagged for a closer look

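Among the 20 sets of 4 quiescent libraries, 1 per gene and genotype, 1 held a value far from the others. *Slc7a1* stood at 217 CPM in quiescent WT library 4, and its gap to the next library was 0.839 of the range of the group, above Dixon's critical value for 4 samples. Chance flags about 1 in 20 such groups. The same library was the highest of its group for all 10 transporters, and with *Slc7a1* at 86.2, 99.3 and 107 CPM in the other 3 libraries its WT activation value did not pass with or without it.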

How the results depend on the processing

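All 4 activated libraries are shallow, carry much CT010467.1 and share sex with state, so activation changes rest on 2 libraries per genotype. Leaving out 1 library at a time gave 3 to 5 transporters called on activation in WT cells, 3 without activated WT library 1, and 2 to 4 in KO cells. DESeq2 on all libraries called 1 transporter, *Slc2a3*, in activated KO against WT. Under the other alternatives the counts stayed within 1.5 times of those given. In quiescent KO against WT 0 were called under all 21 alternatives, and for the difference 0 under all 23.

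Replicate numbers did not pair the quiescent libraries (same-number correlations 0.14, 0.16, -0.15 and 0.47), nor the activated ones (-0.02). With the replicate block the log2 ratio differences between states were 1.17 for *Slc2a1*/*Slc2a3*, 1.86 for *Slc16a1*/*Slc16a3*, 2.40 for *Slc38a1*/*Slc38a2* and -0.92 for *Slc3a2*/*Slc7a5*, all with an adjusted p of 0.156, since few arrangements remain. It kept 5 transporters called in WT, with *Slc2a1* out (-0.69) and *Slc7a1* in (1.14, adjusted p = 0.00233).

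Without 1 library, the *Slc2a1*/*Slc2a3* difference between states ran from 0.68 to 1.20, that of *Slc7a5*/*Slc7a1* from -0.23 to 0.0109, and in quiescent KO minus WT *Slc2a1*/*Slc2a3* from -0.0318 to 0.214, *Slc16a1*/*Slc16a3* from -0.195 to 0.265 and *Slc7a5*/*Slc7a1* from -0.412 to 0.00326.

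Changes of sign were found only in log2 fold changes and ratio differences that were called under no alternative. Of these, *Slc7a1* and *Slc38a1* in KO activation went past the p threshold in some alternative and stayed short of the fold threshold, at no more than 0.779 and 0.675. In WT activation *Slc7a5* turned to 0.0275 (DESeq2 size factors), 0.0272 and 0.0227 (DESeq2 on all libraries and on the compared ones), 0.0146 (edgeR fitted to the WT libraries only), 0.036 (mean count of at least 10), 0.406 (replicate block) and 0.245 (quiescent libraries 4 left out), and *Slc38a1* to 0.00931, 0.0104, 0.00554, 0.0183, 0.502 and 0.244 under the same settings, the edgeR fit to WT libraries apart. Without 1 library, activation values ran from -0.157 to 0.243 for *Slc7a5* and -0.234 to 0.242 for *Slc38a1* in WT, and from -0.0287 to 0.757 for *Slc16a1*, -0.215 to 0.476 for *Slc7a1* and -0.0476 to 0.502 for *Slc38a1* in KO. Activated KO against WT ran from -0.0572 to 0.342 for *Slc2a1*, -0.632 to 0.0935 for *Slc16a1*, -0.766 to 0.00646 for *Slc3a2*, -0.155 to 0.431 for *Slc1a5* and -0.0531 to 0.201 for *Slc38a1*. The cause of these changes was not tested.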
